A study of Mus musculus with 5 samples.

Results

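PABPC1 peaks of the promoter class are the eCLIP peaks of the poly(A)-binding protein PABPC1 that the authors' annotation placed at a promoter, and they numbered 1858 of 14092 PABPC1 peaks, or 13.2%. All rows of the peak table whose annotation begins with the word promoter were taken. Every such peak lay within 1000 bases of the start of the listed transcript, and every other peak lay at least 1001 bases from it, so the class is a distance to the nearest annotated start and says nothing of the kind of RNA bound. The 1858 peaks were listed to 1114 genes, covered 94272 bases and formed 1525 separate stretches after merging within 10 bases.

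The libraries came from the mouse line GC-2spd(ts), whose cell type the labels give as spermatocyte, and the labels name no treatment or genotype contrast. eCLIP sequences the RNA that stays crosslinked to an immunoprecipitated protein after RNase trimming, beside an input library of the same lysate. The series held 5 samples, of which 1 was PABPC1 immunoprecipitation, 2 were CCT3 immunoprecipitation (CCT3 and CCT3-2, which carry the same library name), and each protein had 1 input. CCT3 is a subunit of the TRiC/CCT chaperonin. Each list is 1 sample, so no difference below has a replicate check, and the depth behind each peak is unknown. The log2 fold and −log10 p of each peak are the authors' values, with the fold read here as immunoprecipitation over input. Intervals are 95% intervals that cover counting error only. Neighbouring peaks are not independent, and PCR reads without molecular identifiers are not independent molecules.

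PABPC1 coats the poly(A) tail at the 3′ end of mRNA, and through the cap-binding complex subunit eIF4G it brings the tail close to the 5′ end. Its own mRNA carries an A-rich stretch in the 5′ leader to which the protein binds to limit its own synthesis. A promoter lies mostly upstream of the transcribed DNA, so a crosslinked RNA in a promoter class can come from the first exon of the listed gene, from the 3′ end of a short transcript, or from a neighbouring gene.

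The marker genes of other cell types bear on the label of the line. PABPC1 peaks of any class lay in 8 of 10 spermatocyte markers, 8 of 8 spermatid markers, 4 of 5 Leydig cell markers, 4 of 6 Sertoli cell markers and 7 of 7 fibroblast markers. Promoter-class peaks lay in 7 of the 8 spermatid markers, in 1 of the 5 Leydig cell markers (Insl3) and in 0 of the spermatocyte, Sertoli cell and fibroblast markers. Over all RefSeq genes, 5203 of 38865 held a PABPC1 peak and 1047 of those 5203 (20.1%) held a promoter-class one, and the short spermatid genes with a peak had a median span of 1326 bases against 23992.5 bases over all genes with a peak. Any peak within a gene shorter than 1000 bases, such as Prm1, Prm2 or Tnp2, falls in the class by its rule. Beyond that, the part that gene length or the makeup of the cells plays in these peaks was not tested.

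The sequences below show 3 kinds of RNA found in the class, which together do not make up the whole of it. The first kind is the 3′ end of a neighbouring gene that runs into the promoter of the listed gene. Each line gives 30 bases (RefSeq, GRCm38.p6, which is mm10) of the strand that held the peak, with the poly(A) signal AATAAA in capitals.
Kmt2d, listed to Prkag1, chr15:98831678-98831707 on the minus strand: ttttaaacgataAATAAAaaaagaacattt
Cirbp, listed to Fam174c, chr10:80172753-80172782 on the plus strand: ttgggttgcctgAATAAAgggctgtgaccc
Mcoln1, listed to Pnpla6, chr8:3515203-3515232 on the plus strand: gggcggctgttaAATAAAagggaatgtaaa
Pfdn5, listed to Myg1, chr15:102331459-102331488 on the plus strand: tttaatgttAATAAAtgtgaccgctgcgca
Mapkbp1, listed to Jmjd7, chr2:120027363-120027392 on the plus strand: tatgaaattgtcAATAAAcacaatcatttg
Sympk, listed to Rsph6a, chr7:19054572-19054601 on the plus strand: tgccttaacacaAATAAAagagggcgtagc

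The signal began 26 bases before the RefSeq 3′ end of Kmt2d, 21 before that of Cirbp, 17 before that of Mcoln1, 22 before that of Pfdn5, 28 before that of Mapkbp1 and 39 before that of Sympk. Such a signal was found for 17 peaks of this kind, at most 50 bases before the gene's 3′ end for 16 of them and 258 bases before it for Patz1. The peak itself held the signal in 4 of the 17 (Kmt2d, Cirbp, Mcoln1 and Pfdn5) and did not in the other 13, Mapkbp1 and Sympk among them. AATAAA or ATTAAA was searched in RefSeq promoter windows, which run from 250 bases before to 50 bases after an annotated start of a gene. Of the 1114 listed genes, 858 had a window. On the peak strand, the signal stood in 17 of 17 windows that held an upstream peak belonging to another gene on the listed strand. The class held 222 such peaks, and the search covered only peaks that overlap a promoter window of the listed gene. Among windows with any upstream peak on the listed strand, the signal stood in 23 of 72 (31.9%). The signal stood in 14 of 186 windows (7.53%) whose peak lay within the listed transcript, and in 17.3% of all 32851 windows on the gene strand.

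The second kind is the 5′ end of mRNAs for ribosomal proteins, shown because those mRNAs typically begin with a pyrimidine tract that puts their translation under the control of growth signals. They are 3 of the 5 windows with both a peak and a tract. In these 3 the tract lay after the start of the window's transcript (RefSeq, GRCm38.p6). For Rps12 that start lies inside the span of the RefSeq gene. Each line gives 30 bases, with the tract in capitals.
Rps12, chr10:23787179-23787208 on the minus strand: ccgccggCCTTTTCCCCTgccgccgccgac
Rpsa, chr9:120127780-120127809 on the plus strand: cgcccgTCCTTTCgcgctacccggggacgg
Rpl13a, chr7:45128715-45128744 on the minus strand: aCCTCCTCCTTTCCCaggcggctgccgaag

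The tract began 8 bases after the start of the window's transcript in Rps12, 20 after it in Rpsa and 2 after it in Rpl13a. Peaks covered 4 of its 7 bases in Rpsa and 9 of its 14 bases in Rpl13a, and none in Rps12, where the nearest peak was 10 bases away. In Rpl39l and Rpl4, the other 2 genes, the tract lay in no peak either.

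CTTTT or CTTTC, searched on the gene strand from 20 bases before to 30 bases after the start, stood in 5 of 15 windows (33.3%) of ribosomal protein genes that held a peak. It stood in 35.8% of all 81 windows of ribosomal protein genes, in 5.85% of the 171 windows of other genes with a peak, and in 11.2% of all windows. The share among windows of ribosomal protein genes with a peak was close to that of all windows of the family.

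The third kind is the microRNA, a short RNA that guides Argonaute to targets through its seed, bases 2 to 8, which is in capitals in the lines that follow. They were chosen for the highest folds, a shared seed or known expression in testis.
miR-423-5p, chr11:77078122-77078144 on the minus strand: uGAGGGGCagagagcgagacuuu
miR-27a-3p, chr8:84208727-84208747 on the plus strand: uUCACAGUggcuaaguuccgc
miR-27b-3p, chr13:63300760-63300780 on the plus strand: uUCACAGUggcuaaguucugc
miR-34a-5p, chr4:150068473-150068494 on the plus strand: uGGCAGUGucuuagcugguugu
miR-34b-5p, chr9:51103610-51103632 on the minus strand: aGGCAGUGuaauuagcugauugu
miR-449a-5p, chr13:113037549-113037570 on the plus strand: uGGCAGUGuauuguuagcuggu
miR-202-5p, chr7:139957732-139957752 on the minus strand: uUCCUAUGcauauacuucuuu

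miR-27a-3p and miR-27b-3p share 1 seed, and miR-34a-5p, miR-34b-5p and miR-449a-5p share another.

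Read against the listed transcript, 800 promoter-class peaks (43.1%, 40.8 to 45.3) had their midpoint within the transcript and nearer its 5′ end, and 342 (18.4%, 16.7 to 20.2) lay within it and nearer its 3′ end. Another 519 (27.9%) lay upstream of the start and 197 (10.6%) lay downstream of the end. The peak itself spanned the listed start in 206 cases (11.1%). Within 500 bases of an end, 943 peaks (50.8%) were near the 5′ end alone, 412 (22.2%) near the 3′ end alone, 145 (7.80%) near both and 358 (19.3%) near neither. The listed transcript had a median length of 915 bases for peaks nearer its 3′ end and 569 bases for downstream peaks, against 4904.5 bases for peaks nearer its 5′ end.

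Most of the peaks nearer the 3′ end lay at the end of a short transcript of a longer gene rather than of a short gene. Of 340 such peaks whose gene is in RefSeq, the listed start was within 100 bases of the gene's start for 86 (25.3%). The RefSeq gene was at most 2000 bases long for 102 and longer than 10000 bases for 110. Over the whole class, the listed start matched the RefSeq start within 100 bases for 796 of 1845 peaks (43.1%).

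**Figure D1:**
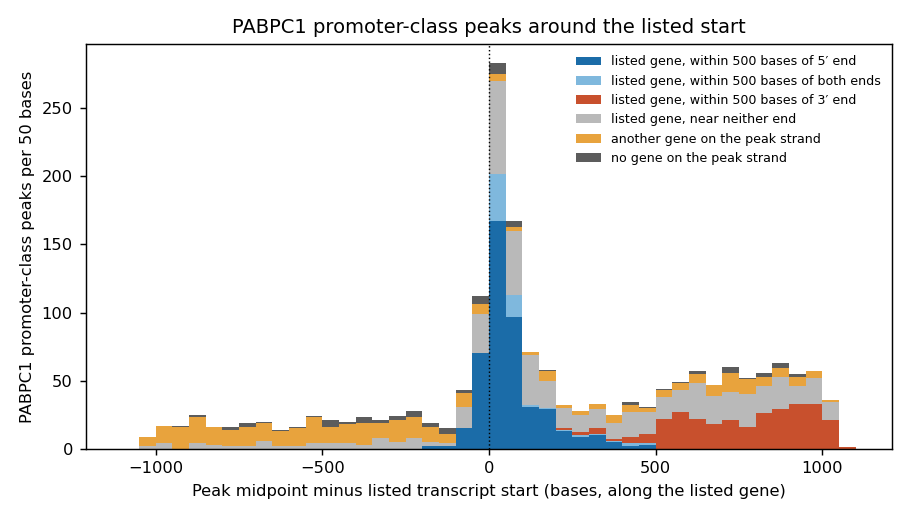
Number of PABPC1 promoter-class peaks (y axis, per 50 bases) by the distance of the midpoint from the listed start (x axis, bases along the listed gene, upstream negative), with colours for where the peak lies on RefSeq genes. Of the 461 upstream peaks on the listed strand, 222 were those of another gene and 202 those of the listed gene. Peaks just after the start were mostly near the 5′ end of the listed gene, and those near its 3′ end lay mostly beyond 500 bases.

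To place the peaks by gene and not by transcript, each midpoint was assigned to a RefSeq gene on the peak's strand whose span, introns included, holds it. The listed gene held 1390 peaks (74.8%), another gene held 386 (20.8%, 19.0 to 22.7) and no gene held 82 (4.41%, in 51 of which a gene of unknown strand lay there). Of the peaks in the listed gene, 455 (24.5% of the class) lay within 500 bases of its 5′ end, 289 (15.6%) within 500 bases of its 3′ end, 60 (3.23%) near both and 586 (31.5%) near neither.

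Among the 1776 peaks that a gene held, 645 (36.3%, 34.1 to 38.6) lay within 500 bases of the 3′ end of that gene and 530 (29.8%, 27.8 to 32.01) within 500 bases of its 5′ end. Among the other PABPC1 peaks, 50.3% of 11624 lay near the 3′ end, a difference of -14.0 percentage points (-16.4 to -11.6). Class peaks must lie within 1000 bases of a listed start and the other peaks must not. The rule thus limits which class peaks can be near a 3′ end, and its part in this difference was not tested. The share of other peaks near a 5′ end is set by the rule of the class and is not compared. In the CCT3-2 promoter class, made by the same rule from a list that also kept weaker peaks (log2 folds from 2.52 and −log10 p from 1.40 in the class) and holding 3012 of 18650 peaks, 1.41% of 2899 held peaks lay near the 3′ end, so the PABPC1 class was 34.9 points higher (32.6 to 37.2). The 5′ end share was 29.8% in the PABPC1 class against 13.6% in the CCT3-2 class, 16.2 points higher (13.8 to 18.7). Peaks within the listed gene but near neither end made up 31.5% of the PABPC1 class and 74.3% of the CCT3-2 class. The listed transcripts had a median length of 2514 bases in the PABPC1 class and 8508 bases in the CCT3-2 class. A peak close to the start of a long transcript is far from its 3′ end, and the part of transcript length in these differences was not tested.

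**Figure D2:**
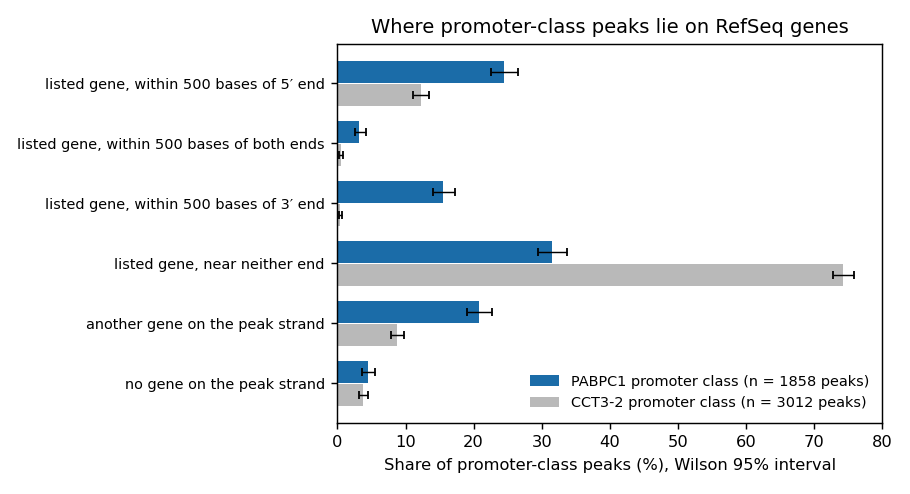
Share of promoter-class peaks (x axis, percent, bars with Wilson 95% intervals) at each place on RefSeq genes, for the 1858 PABPC1 peaks (upper bar) and the 3012 CCT3-2 peaks (lower bar). The PABPC1 bars were higher near either end and in another gene, and lower near neither end, at 31.5% in the PABPC1 class against 74.3% in the CCT3-2 class.

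The highest fold among mRNA peaks nearer the listed 5′ end was in the message of PABPC1 itself. The listed transcript of Pabpc1 starts inside the RefSeq gene, so these peaks lay 618 to 753.5 bases from the RefSeq 5′ end and count as near neither end of the gene. Pabpc1 (chr15, minus strand) had 12 promoter-class peaks, with a lowest log2 fold of 5.03, a median of 7.67 and a highest of 8.94, all at the capped −log10 p of 400. They formed 2 stretches. The stretch nearer the listed start ran over 44 bases (chr15:36608923-36608966, mm10) with 5 peaks of log2 fold 5.03 to 7.28. The stretch farther into the transcript ran over 93 bases (chr15:36608815-36608907) with 7 peaks of log2 fold 7.66 to 8.94. The fold was highest 100 bases after the listed start and lower towards both edges. The other 4 Pabpc1 peaks were annotated to the 3′ UTR, with log2 folds of 3.17, 3.32, 5.90 and 6.62, of which the lower 2 lay below every promoter-class peak of the gene.

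**Figure D3:**
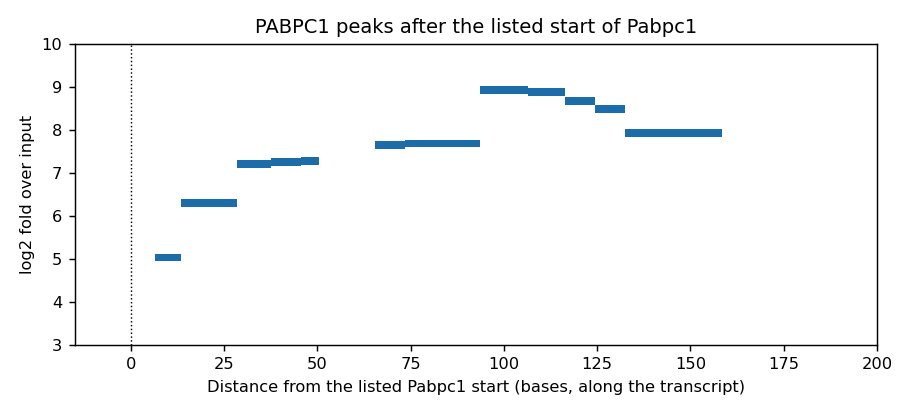
The 12 promoter-class PABPC1 peaks of Pabpc1, each drawn as a bar over the bases it covers (x axis, bases from the listed start along the transcript) at its log2 fold over input (y axis). The peaks climbed to a log2 fold of 8.94 at 100 bases and were separated by 1 gap into 2 stretches.

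Pabpc1 was 1 of 2 genes of the poly(A)-binding and poly(A) tail factor list with a promoter-class peak, of 19 with any PABPC1 peak. That share, 10.5%, was below the 20.3% of all genes that hold a PABPC1 peak. The other gene was Paip2b, whose product binds PABPC1 and inhibits translation, with 1 peak at a log2 fold of 4.93. That peak lay 21705.5 bases from the RefSeq 5′ end, so it was not at the 5′ end of the full-length gene.

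Ribosomal protein genes carried promoter-class peaks in 40 of the 48 genes with any PABPC1 peak (83.3%), whereas 1061 of the 5230 genes that hold a PABPC1 peak did (20.3%). Their RefSeq spans were shorter, with a median of 3632.5 bases against 23992.5 bases over all genes that hold a peak, and the part of gene length in this share was not tested. Past a log2 fold of 4 with a −log10 p of 5, a stricter threshold that 49.5% of all PABPC1 peaks passed, 11 of the 40 kept a promoter-class peak, against 423 of 1047 over all RefSeq genes. Of the 46 ribosomal protein peaks near the 5′ end, 13 (28.3%) passed it. In 29 of the 48 (60.4%, 46.3 to 73.0) a peak lay within 500 bases of the 5′ end and not of the 3′ end, against 354 of 5230 over all genes (6.77%). Of the 46 such peaks listed to the gene that holds them, 33 (71.7%) lay within 100 bases of the 5′ end, against 230 of 455 (50.5%) over all peaks near the 5′ end of the listed gene. Of those 29 genes, 6 (20.7%) also had a PABPC1 peak within 500 bases of the 3′ end, against 141 of 348 (40.5%) over all genes with a 5′ end peak. The 3′ share was also lower in the family as a whole. It was 20 of the 48 ribosomal protein genes with any PABPC1 peak (41.7%), against 3449 of 5230 (65.9%) over all genes that hold one.

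The folds of ribosomal protein genes were modest. The median of the highest log2 fold per gene was 3.71, against 4.01 over all genes with a promoter-class peak. Rplp0, the stalk base protein of the large subunit, had a highest log2 fold of 5.89, with that peak 56.5 bases from the 5′ end. Rps12, a protein of the small subunit, reached 5.27. Rps2, also of the small subunit, had the highest log2 fold of the list, 6.67, but at 2000 bases from the 5′ end, and Rpl10l, an intronless testis-expressed copy of Rpl10, reached 5.71 at 59.5 bases from the 3′ end. The list was chosen by symbol, and its member Rps19bp1, which binds RPS19 but is not a ribosomal protein, is counted in it with 1 peak. The CCT3-2 list had a peak of any class in 1 gene of the ribosomal protein list. Over all genes, 2567 held a CCT3-2 peak and 5230 held a PABPC1 peak.

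**Figure D4:**
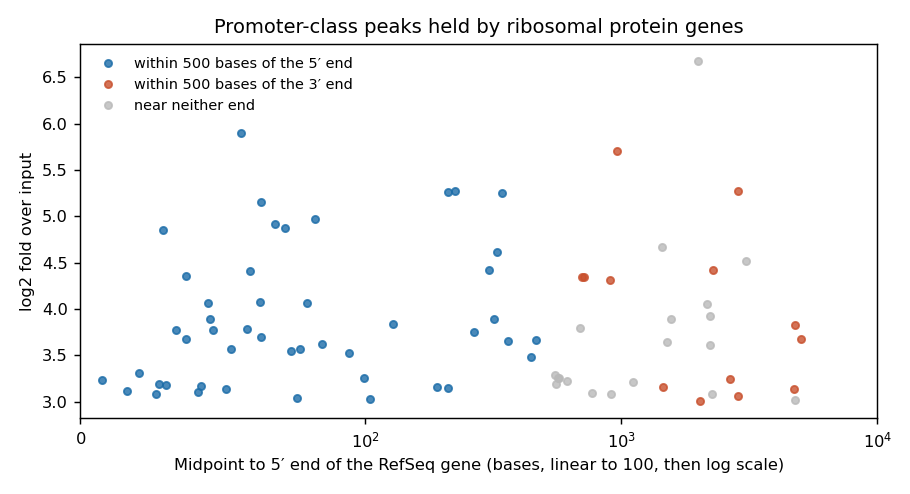
Log2 fold over input (y axis) of the 79 promoter-class peaks held by ribosomal protein genes against the distance from the midpoint to the 5′ end of the RefSeq gene (x axis, bases, linear to 100 and then on a log scale). Peaks near the 5′ end are in blue, near the 3′ end in red and near neither in grey, and the highest log2 fold, 6.67 in Rps2, was near neither end.

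Nuclear genes for respiratory chain subunits had promoter-class peaks in 23 of 51 genes with any peak (45.1%), against 20.3% of all genes that hold a PABPC1 peak. Their median RefSeq span was 6487 bases against 23992.5 bases over all such genes, and the part of gene length was not tested. A promoter-class peak passed the stricter threshold in 5 of the 23, against 423 of 1047 over all RefSeq genes. In 17 of the 51 (33.3%) a PABPC1 peak lay within 500 bases of the 5′ end and not of the 3′ end, against 6.77% of all genes that hold a peak. The highest promoter-class folds were in Uqcr11, a subunit of complex III, at a log2 fold of 6.12 (37.5 bases from the 5′ end), Ndufb7 of complex I at 5.65, Cox8a of complex IV at 4.34 and Ndufb8 of complex I at 4.24. The median of the highest fold per gene was 3.69. The list was chosen by symbol, and it also counts ATP synthase genes, whose symbols begin with Atp5. Its member Cox17 is an assembly factor of complex IV and not a subunit. A peak near the 3′ end as well was found in 10 of 16 (62.5%) genes whose 5′ peak was listed to them, against 39 of 51 (76.5%) respiratory chain genes with any PABPC1 peak.

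Translation factor genes had promoter-class peaks in 13 of 27 genes with any peak (48.1%), against 20.3% of all genes that hold a PABPC1 peak. Their median RefSeq span was 14989 bases against 23992.5 bases over all such genes, and the part of gene length was not tested. In 4 of the 13 a promoter-class peak passed the stricter threshold, against 423 of 1047 over all RefSeq genes. The median highest log2 fold was 3.93. Only 3 genes had a promoter-class peak near the 5′ end, among them Eef1b2, an elongation factor subunit that reloads eEF1A, at 5.04 and 323.5 bases from the 5′ end. Eif4g2, an initiation factor related to eIF4G, had 5 peaks up to 5.22 near neither end. Eif4g1 itself, the scaffold of the cap-binding complex, had 5 peaks up to 4.81 of which the highest was listed to the neighbouring Fam131a and lay 274 bases from the Eif4g1 3′ end. Eif4a1, the helicase of that complex, reached 4.53 and lay 399 bases from its 3′ end.

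Heat shock and chaperonin genes had a promoter-class peak in 5 of 17 genes with any peak (29.4%), against 20.3% of all genes that hold a PABPC1 peak. In 1 of the 5 such a peak passed the stricter threshold, against 423 of 1047 over all RefSeq genes. The highest log2 folds were 4.89 in Tcp1, a CCT subunit with 7 peaks, 3.79 in Hsp90aa1, 3.39 in Hspe1 and 3.32 in Cct3. The Cct3 peak lay 107.5 bases from the 3′ end of the RefSeq gene, inside a short listed transcript. Immediate early genes had a promoter-class peak in 0 of the 5 with any peak, too few to set against that 20.3%. Tug1, the long noncoding RNA named in the title of the series, had none in the class and 1 peak outside it. Of the replication-dependent histone genes 1 of 1 with any peak had a promoter-class peak (H2bc21, log2 fold 6.37), as did 1 of 1 small nucleolar RNA host genes (Snhg3, 3.97, listed to Rcc1). With 1 gene each, these lists give no share to compare.

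Short genes expressed in spermatids carried promoter-class peaks at either end, with 4 genes having one near the 5′ end, 3 near the 3′ end, 2 near both ends and 1 near neither, a gene counting in each. Promoter-class peaks lay in 8 of the 9 list members with any PABPC1 peak (88.9%), against 20.3% of all genes that hold a PABPC1 peak. The members with a peak had a median RefSeq span of 1326 bases against 23992.5 bases over all such genes. The part of gene length in this share was not tested. The list held 25 promoter-class peaks in all. Its median highest log2 fold was 5.04, against 4.01 over all genes with a promoter-class peak. Prm1, a protamine that replaces histones in sperm, had 3 peaks listed to Prm2, at log2 folds of 6.53, 8.002 and 8.43, and the last of these lay 1.5 bases from the Prm1 3′ end. Its other 3 peaks were listed to Prm1 and had log2 folds of 5.03 to 6.05. Prm2 itself reached 5.06, 14.5 bases from its 3′ end and listed to Prm3. The transition protein gene Tnp2, whose product bridges histones and protamines, reached 5.54. Odf1, an outer dense fibre protein of the sperm tail, reached 5.30 near its 5′ end.

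Nearer the listed 3′ end, the genes of the 8 highest folds were the microRNA genes Mir143 and Mir27a and the following. Hnrnpl, a splicing regulator, had log2 folds of 5.07, 4.07 and 6.51 (all at −log10 p 400), the highest 61 bases from the RefSeq 3′ end. Safb, a nuclear scaffold protein that binds RNA, had 3.63 and 6.53, the highest 42 bases from its 3′ end. Srsf2, a splicing factor, had 4.48, 6.49 and 6.09, but all at least 753 bases from the RefSeq 3′ end. Ndufb11b had 4.18, 5.52 and 7.29, each within 148 bases of the 3′ end of its short gene. Zcchc13, a testis zinc-finger gene with a short span, reached 6.55, and Adh5, an alcohol dehydrogenase, reached 6.28.

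The other genes of the 8 highest folds nearer the listed 5′ end were, beside Mir423 and Pabpc1, the following. Tppp2, a tubulin-binding protein, had 7.31 and 6.24 at 11 and 45 bases from the RefSeq 5′ end. Fscn3, a testis fascin that bundles actin, had 7.14, 7.25, 7.11 and 7.08, all at −log10 p 400 and between 50.5 and 112 bases from the 5′ end. Insl3, a peptide hormone of Leydig cells, had 7 such peaks up to 7.71, but all 10 of its promoter-class peaks also lay in the span of another gene on the strand, Jak3. Grm4, a glutamate receptor, had 3 adjoining peaks of 7.35, at least 10956 bases from the RefSeq 5′ end, and Dgkh, a diacylglycerol kinase, had 1 of 7.03 at 88315 bases. Epb41l4aos, an antisense transcript, reached 8.09 near neither end.

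The genes with most promoter-class peaks were mostly not 5′ end cases. Hnrnpa2b1, an hnRNP that binds RNA and regulates splicing, had 22 peaks (log2 folds of 3.05 to 6.18, median 4.03) listed to 3 transcripts, all between 3870.5 and 7237.5 bases from the RefSeq 5′ end and at least 2376.5 bases from the 3′ end. Cirbp, a cold-induced RNA-binding protein, had 10 (3.16 to 6.08), and Ptms, a small acidic chromatin protein, had 10 (3.27 to 5.33). All peaks of the 3 genes lay at least 3260.5 bases from the RefSeq 5′ end, around the starts of shorter annotated transcripts, and those of Ptms came as near as 96.5 bases to its 3′ end. In the class as a whole, 717 listed genes had 1 peak and 42 had 5 or more.

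Of the 386 peaks held by another gene, 296 (76.7%, 72.2 to 80.6) lay within 500 bases of the 3′ end of that gene, 131 (33.9%) within 100 bases, and 15 (3.89%) within 500 bases of its 5′ end. Their median distance to that 3′ end was 175.5 bases (quartiles 75.5 and 432.4), against 8405 bases for 264 such CCT3-2 peaks, of which 5.68% were within 500 bases. Among the 461 upstream peaks on the listed strand, 222 belonged to another gene, of which 191 (86.0%) were near its 3′ end, and 202 belonged to the listed gene, whose span began before the listed transcript. G3bp1, a stress granule protein, had peaks of log2 fold 9.20 and 8.93 listed to Mir7652, 573 and 531 bases from its 3′ end. Abi3, an Abl-interactor family protein, had 3 adjoining upstream peaks of 9.66 within its own RefSeq span.

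Peaks on the strand opposite to the listed gene numbered 123 (6.62%, 5.58 to 7.84), where 14.5% of all PABPC1 peaks did so. The other PABPC1 peaks stood at 15.7%, a difference of -9.07 points (-10.3 to -7.70), and the CCT3-2 class at 7.64%, a difference of -1.02 points (-2.46 to 0.499) whose interval includes 0. The opposite share was 2.13% nearer the 5′ end and 0.877% nearer the 3′ end, against 11.2% upstream and 22.8% downstream of the listed transcript. Another gene on the peak's own strand held 104 of the 123 (84.6%), and 74 of these 104 (71.2%) lay within 500 bases of its 3′ end. Ufsp1 had log2 folds of 8.58 and 3.01 on the opposite strand, the first 38 bases from the 3′ end of Srrt, which acts in RNA processing. The Rack1 peak of 5.94 lay 32.5 bases from the 3′ end of Trim41, a ubiquitin ligase. Peaks listed to Mir6376 (8.17, in Rpn1) and Mir126b (6.53, in Egfl7) lay 1561 and 1278.5 bases from the 3′ end of the gene that held them, and that of Mir1668 (6.28) lay in no gene on its strand.

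MicroRNA genes took 115 promoter-class peaks over 64 genes, of which 47 peaks in 33 genes lay within the microRNA gene on its strand. A mature sequence was in the reference for 29 of these genes (42 peaks), and 38 peaks in 27 genes overlapped it. MicroRNA genes made up 33 of the 43 genes with a peak near both ends, which follows from their length. Their median span was 77 bases, so any peak within one also falls in the class by its rule. Mir423 had the highest log2 folds of the class, 11.43, 10.85 and 10.85, over 30 bases (chr11:77078122-77078151) that overlap miR-423-5p printed above, and all 3 peaks also lay in the span of Nsrp1 on the same strand. Mir27a had 7.20 in both of its peaks, Mir34c reached 6.97, Mir34a 5.76, Mir27b 5.72, Mir202 5.61, Mir34b 4.86 and Mir449a 4.78, and Mir143 reached 7.36. The other 68 peaks lay outside the microRNA gene to which they were listed, 58 of them held by another gene and 27 of those within 500 bases of its 3′ end.

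Promoter-class peaks were lower than the rest of the list. The median log2 fold was 3.90 (quartiles 3.41 and 4.67) in the class and 4.25 (3.64 and 5.02) in the other PABPC1 peaks. Past a log2 fold of 4 with a −log10 p of 5 stood 697 promoter-class peaks (37.5%, 35.3 to 39.7), against 51.3% of the other peaks, a difference of -13.8 points (-16.1 to -11.4), and 49.5% of all PABPC1 peaks. By place, the share was 29.5% near the 5′ end (median log2 fold 3.70), 41.2% near the 3′ end (4.00), 32.3% near neither end (3.76), 45.6% in another gene (4.12) and 65.0% near both ends (5.13). The median −log10 p was 11.2 in the class and 10.4 in the other peaks, and 124 promoter-class peaks (6.67%) were at the cap against 4.52% of the others. The peaks were narrow, with a median of 47 bases against 50, and 4.74% against 1.60% were under 10 bases.

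**Figure D5:**
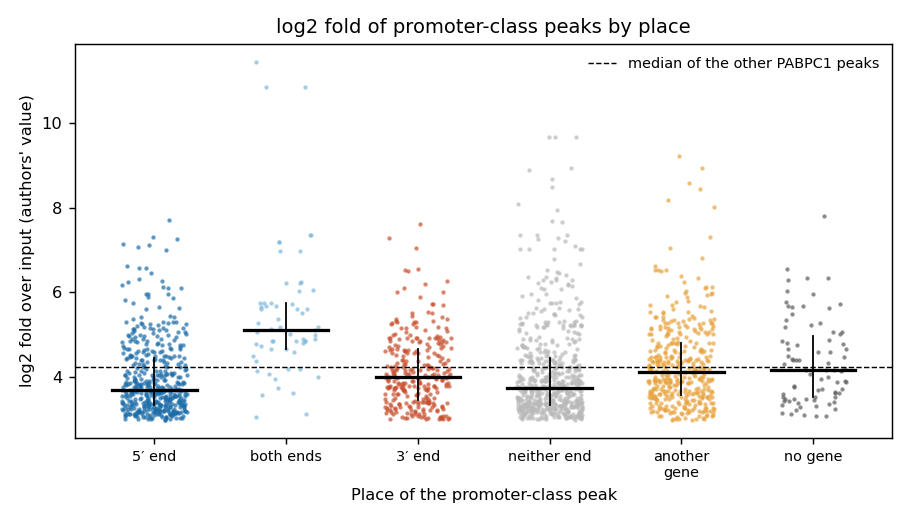
Log2 fold over input (y axis) of each PABPC1 promoter-class peak by place on RefSeq genes (x axis), with the median as a thick bar, the quartiles as a thin line, and the median of the other PABPC1 peaks, 4.25, as a dashed line. The median was below the dashed line at every place but near both ends, where it was 5.13.

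At the limit of the class, the peaks just inside had log2 folds of 4.65 (Avil, whose peak lay in Ctdsp2, 299.5 bases from its 3′ end), 7.29 (Ndufb11b) and 4.47 (Cfl2). Those just outside had 3.46 (Proca1), 6.06 (Polg2, whose peak lay in Ddx5) and 3.28 (Thap7), and all 3 were annotated to the 3′ UTR.

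CCT3-2 peaks overlapped 40 promoter-class peaks by at least 1 base on the same strand (2.15%, 1.58 to 2.92), against 0.915% of the other PABPC1 peaks and 1.08% of all. The overlaps with the highest PABPC1 log2 fold were in Mir423, Abi3, Grm4, Mir27a and Mir29a. CCT3 peaks, whose table gives no strand, overlapped 12 (0.646%, 0.370 to 1.13) against 0.572% of the other peaks.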

How the data were processed

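For each peak the authors deposited a −log10 p, capped at 400, and a log2 fold. In the PABPC1 and CCT3-2 tables neither column has a name, and both were identified by their ranges. Per the submitters' processing notes, bcl2fastq 2.20 and the build mm10 were used. The software for alignment, peak calling and annotation, and the handling of duplicates, remain not given in the sources used here. All PABPC1 peaks had a log2 fold of at least 3.00 and a −log10 p of at least 3.01.

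A midpoint was placed on the listed transcript by its start, end and strand, and on RefSeq genes of GRCm38.p6 by span, with gene strand from the promoter table or the peak tables. Where several genes on the strand held it (57 peaks), the listed gene was taken first. Near an end means within 500 bases. Shares have Wilson 95% intervals and differences Newcombe intervals. Python 3.11.15, numpy 2.4.6, pandas 2.3.3, bedtools 2.31.1 and matplotlib 3.10.9 were used. Tested on simulated peaks, 800 of 800 positions and strands and 198 of 200 holding genes were recovered.

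No p-value was computed, since PABPC1 has 1 sample. Members and gene lists were chosen with earlier results of these data known. Named genes are Pabpc1, Cct3 and Tug1, the highest folds per place and on the opposite strand, the genes with most peaks, up to 4 members per list and the peaks next to the class limit. G3bp1 and other genes that hold a peak listed elsewhere, the remaining microRNAs, Rps19bp1, Cox17 and Patz1 were chosen after their values were seen. So were the genes of overlapping peaks and the genes whose sequences are shown. Alternatives were a stricter threshold, other distances, merging, 1 peak per gene and other overlaps.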

Additional observations from a re-analysis of the deposited data

Results flagged for a closer look

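The CCT3 list was not used in the placing of peaks, since it gives no strand. It overlapped 12 promoter-class PABPC1 peaks, which were noted because they are a signal in data outside the main measurement, and among them were Mir423, Tstd1 (in the span of Usf1), Tmod1 and Hsp90aa1. The share, 0.646%, was near the 0.572% of the other PABPC1 peaks.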

How the results depend on the processing

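The 12 results were recomputed 57 times under other settings, and 30 of these values lay inside the counting interval or the spread. No alternative changed a call, since no test was run. The share nearer the listed 5′ end was 37.7% by the upstream edge of the peak, 40.2% on RefSeq spans, 38.5% past the stricter threshold and 47.2% with 1 peak per gene. The share nearer the 3′ end was 36.5% on RefSeq spans and 16.5% with 1 peak per gene. The share outside the listed transcript was 43.7% by the upstream edge, 23.3% on RefSeq spans, 41.3% past the stricter threshold, 36.3% with 1 peak per gene and 35.3% without opposite-strand peaks. The share near the listed 3′ end alone was 10.2%, 18.7% and 1.78% at limits of 100, 250 and 1000 bases, and 25.4% past the stricter threshold. The class ends at 1000 bases from the start, so few peaks can be near the 3′ end alone at that limit. The opposite-strand share was 7.89% past the stricter threshold and 3.49% within 250 bases of the start. The share in another gene was 25.3% and the CCT3-2 overlap 1.00% past the stricter threshold.

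Alternatives chosen after seeing the data gave, for held peaks near the gene's 3′ end, 16.0%, 28.3% and 43.5% at limits of 100, 250 and 1000 bases, 44.6% past the stricter threshold and 35.1% with 1 peak per gene. For the 5′ end they gave 16.0%, 24.0% and 41.4% at those limits and 35.0% with 1 peak per gene. The 3′ share exceeded the 5′ share at 250, 500 and 1000 bases, equalled it at 100 bases, and was within 1 point of it with 1 peak per gene. Past the stricter threshold, ribosomal protein genes with a promoter-class peak numbered 11 in place of 40, respiratory chain genes 5 in place of 23, translation factor genes 4 in place of 13, and heat shock and chaperonin genes 1 in place of 5. Short spermatid genes numbered 7 in place of 8, and all RefSeq genes 423 in place of 1047. No paired analysis was possible because each list is 1 sample and nothing was tested across samples. Depth is unknown, so weaker binding below the authors' thresholds cannot be judged.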
